A study of Homo sapiens
Mus musculus and Homo sapiens with 12 samples.

Results

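CRIP1, CRIP2, CSRP1 and CSRP2 encode small human proteins built almost entirely of LIM domains, and their transcript levels were followed in cell fusions between human fibroblasts and mouse embryonic stem cells. The 4 genes were chosen by name, with earlier results of these data known, out of 10290 human genes listed in the tables used here and 18774 human genes with a coding accession in the range of those tables. The heterokaryons were transient fusions of D3 mouse ES cells with MRC5 human fibroblasts, a line from foetal lung, in which the nuclei of both species stay apart. They were harvested 1, 2 and 3 days after fusion, with 2 libraries per day. The homokaryon, with 1 library and no harvest day in the labels, was a fusion of human fibroblasts with each other. The 2 co-culture libraries came from D3 and MRC5 cells grown together without fusion and pooled for RNA, and the unfused fibroblasts were human fibroblasts alone. These groups have no harvest day in the labels either, so whether their time in culture matched any heterokaryon day is unknown. The labels name no transgene and no drug, and per their protocol heterokaryons were sorted by FACS and RNA was polyA selected. The series asks how cells are reprogrammed over the heterokaryon time course. In such bulk RNA, fewer cells of a type and less RNA per cell cannot be told apart.

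A LIM domain is a cysteine and histidine rich fold held by a pair of zinc ions, and it binds other proteins rather than DNA. CRIP1 has a single LIM domain and was first described in mammalian intestine, while CRIP2 carries a pair of LIM domains and is known from the heart and blood vessels. CSRP1 and CSRP2 also carry a pair each and bind the actin crosslinker alpha-actinin and the focal adhesion protein zyxin. CSRP1 is abundant in smooth muscle and fibroblasts, and CSRP2 is known from arterial smooth muscle and other mesenchymal cells.

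The start of each reading frame is shown because the spaced cysteine codons are what the family is named for, and because likeness between the transcripts bears on how reads are told apart. These are the first 180 coding bases (60 codons) of each human transcript from GENCODE release 29, written 5′ to 3′ with cysteine codons in capitals.
CRIP1: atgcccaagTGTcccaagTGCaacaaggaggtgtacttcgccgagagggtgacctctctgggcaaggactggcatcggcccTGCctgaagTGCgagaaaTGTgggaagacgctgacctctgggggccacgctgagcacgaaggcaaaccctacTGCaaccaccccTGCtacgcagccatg
CRIP2: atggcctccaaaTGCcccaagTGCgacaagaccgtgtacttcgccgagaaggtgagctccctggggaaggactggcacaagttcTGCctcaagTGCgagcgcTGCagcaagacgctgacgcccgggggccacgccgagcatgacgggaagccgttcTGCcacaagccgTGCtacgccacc
CSRP1: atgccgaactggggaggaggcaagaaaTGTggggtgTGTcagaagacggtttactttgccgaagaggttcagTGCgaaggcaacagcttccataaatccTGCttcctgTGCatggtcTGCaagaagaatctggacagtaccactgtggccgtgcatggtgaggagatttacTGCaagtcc
CSRP2: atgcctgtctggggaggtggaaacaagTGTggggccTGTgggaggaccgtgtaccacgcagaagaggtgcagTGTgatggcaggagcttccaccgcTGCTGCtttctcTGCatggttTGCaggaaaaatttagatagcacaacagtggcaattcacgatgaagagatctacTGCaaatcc
In these stretches CRIP1, CRIP2 and CSRP1 have 7 cysteine codons each and CSRP2 has 8. Over the whole reading frame, CRIP1 has 7 cysteines in 77 codons (9.09%), CRIP2 14 in 208 (6.73%), CSRP1 15 in 193 (7.77%) and CSRP2 16 in 193 (8.29%). Pairs of cysteines 3 codons apart, counted wherever they fall and not by zinc site, occur 3 times in CRIP1, 6 times in CRIP2 and 8 times in each CSRP. They begin at the same codons in CSRP1 and CSRP2, from codon 10 to codon 167.

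Within these stretches CRIP1 and CRIP2 were 78.0% identical, and CSRP1 and CSRP2 were 73.9% identical (72.9% over the whole 582 coding bases), against 48.5% to 55.8% between a CRIP and a CSRP. The longest run of identical bases shared by a pair of the whole transcripts was 10 to 16 bases over the 6 pairs. GENCODE lists 4 processed copies of CRIP1, and the longest run that one of them, CRIP1P2, shares with CRIP1 is 37 bases. CRIP1 and CRIP2 lie side by side on chromosome 14, with 0 genes between them in RefSeq's annotation of GRCh38, while CSRP1 is on chromosome 1 and CSRP2 on chromosome 12.

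Levels are given in a unit of the RPKM form, which is reads scaled to transcript length and to library size. The unit was inferred from the values, since the labels do not state it. The level of a gene adds up its coding transcripts, and one missing from a table counts as 0 only in the range that the table covers. The sum takes in 1 transcript for CRIP1 and CSRP2 and 3 for CRIP2 and CSRP1. Such sums may count the same reads more than once, so levels of different genes can be set side by side only roughly. The 4 genes were covered in 10 libraries. The unfused fibroblasts have 3 samples, but the human part of the replicate 1 table ends before these genes and the replicate 3 table lists no human accession, so unfused fibroblast values are those of replicate 2 alone. Read totals were not given, so depth is unknown and no counting error is attached. Across genes, replicate levels correlated at 0.867 on day 1, 0.938 on day 2, 0.906 on day 3 and 0.942 in co-culture, as Pearson r of log2 values. The labels do not say that replicates were separate cultures, so errors and p-values describe no more than the spread among these libraries, which may be technical.

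The label of fibroblast was set against defining markers, of which 8 of 14 were covered. Their summed level was 5274 to 8647 in heterokaryons, 17214 in the homokaryon, 7373 to 7400 in co-culture and 8432 in the unfused fibroblast library, with collagens and vimentin present throughout and LUM at 0 in 5 libraries. Endothelial markers (5 of 6 covered) summed to 1.29 to 5.44 in heterokaryons, 24.8 in the homokaryon, 6.29 to 7.22 in co-culture and 5.71 in the unfused fibroblast library, and haematopoietic markers (4 of 7) to 0.149 to 13.7, 9.06, 0 to 4.36 and 4.34 in the same groups. Of 9 human pluripotency markers only UTF1 was covered, at 0 in 9 of the 10 libraries and 0.215 in the remaining one, a day 3 heterokaryon.

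CRIP1 was high in all heterokaryon libraries and near 0 everywhere else. Its level was 61.6 and 43.1 on day 1, 114 and 131 on day 2 and 75.3 and 52.2 on day 3. It was not listed in the homokaryon, where it was taken as 0, and it was 0.985 and 0 in the co-cultures and 0.678 in the unfused fibroblast library. The lowest heterokaryon library thus lay far above the highest other library, and the groups did not overlap. The 2 libraries of day 2 were the highest, and the ranges of day 1 and day 3 overlapped.

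CRIP1 averaged 52.4 ± 13.1 on day 1, 122 ± 11.4 on day 2 and 63.7 ± 16.3 on day 3, against 0.493 ± 0.697 in co-culture (SD, n = 2 each). On the scale of log2 of the level plus 1, the difference from co-culture was 5.22 on day 1, 6.45 on day 2 and 5.50 on day 3, each with an SE of 0.44. With co-culture so near 0, these differences depend on the 1 that is added. The levels of this family in these comparisons were known when it was chosen, so none of its differences is tested. By size of difference CRIP1 stood at place 4 of 3556 genes on day 1, 2 of 2421 on day 2 and 3 of 2990 on day 3. The 3 comparisons share the co-culture libraries, so they are not separate observations.

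**Figure D1:**
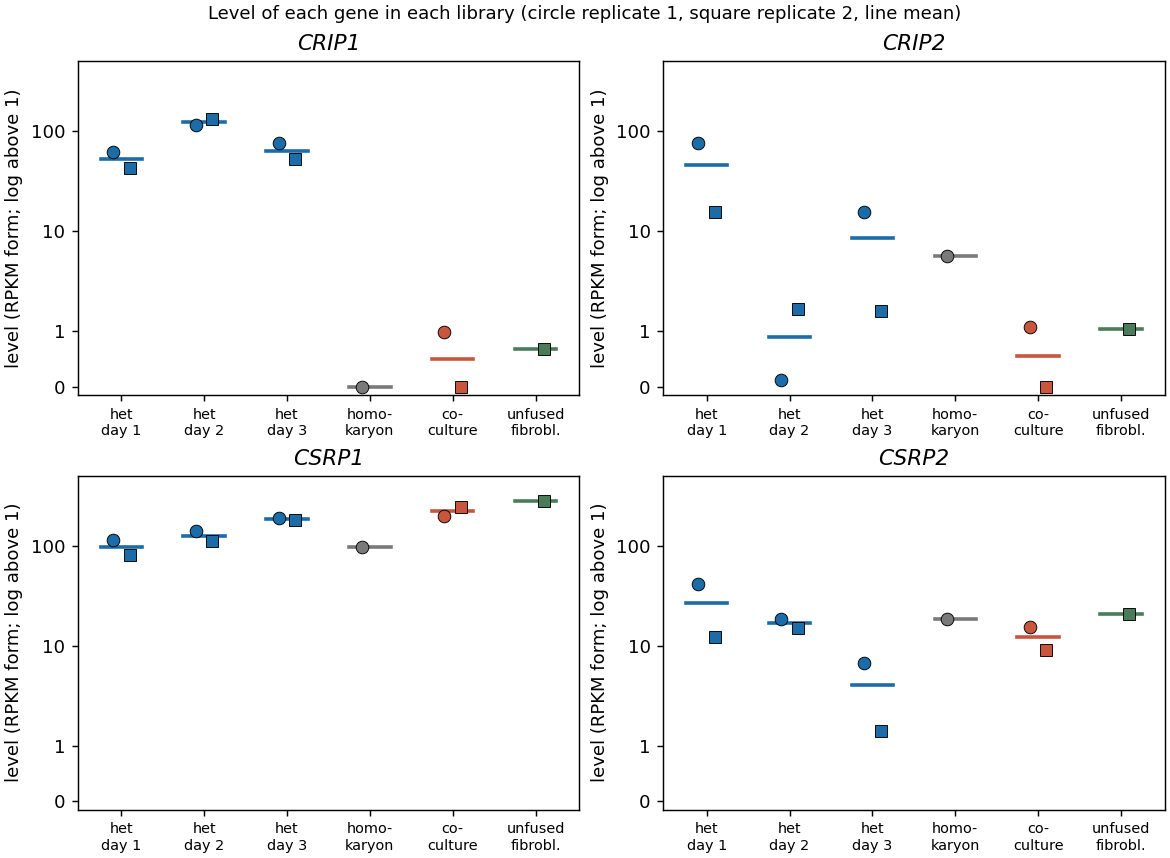
Level of CRIP1, CRIP2, CSRP1 and CSRP2 (RPKM form, linear to 1 and logarithmic above) in each library, with circles for replicate 1, squares for replicate 2 and a line at the group mean. CRIP1 sits at 43.1 to 131 in the 6 heterokaryon libraries and at 0 to 0.985 in the others, while CSRP1 lies lower in every heterokaryon library than in either co-culture.

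Heterokaryon and co-culture libraries all hold mouse RNA, and how far mouse reads entered the human values was not tested. CRIP1 was 0.985 and 0 in the co-cultures, and the share of mouse RNA in either group was not measured here. The summed level of epithelial markers was also higher in every heterokaryon library than in the others. Of the 8 on the list, 5 were covered, and they summed to 125 to 619 in heterokaryons, 16.8 in the homokaryon, 12.5 to 24.6 in co-culture and 10.3 in the unfused fibroblast library. At a level of 1 or more stood 4 or 5 of the 5 in heterokaryons, 3 in the homokaryon, 2 or 4 in co-culture and 2 in the unfused fibroblast library. EPCAM, a defining member of that list, was at 0 in 2 heterokaryon libraries and in both co-cultures. By day, the sum was 156 and 125 on day 1, 297 and 619 on day 2 and 598 and 368 on day 3. In day 2 replicate 1, KRT19 made up 259 of the 297 and KRT8 was at 0. The part of these markers in the CRIP1 levels was not tested.

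CRIP2 had no steady level on any day. It was 76.1 and 15.4 on day 1, 0.116 and 1.66 on day 2 and 15.4 and 1.60 on day 3. It was 5.70 in the homokaryon, 1.11 and 0 in co-culture and 1.06 in the unfused fibroblast library. Both day 1 libraries and both day 3 libraries lay above both co-cultures, whereas the day 2 libraries overlapped with them. The day 1 and day 3 ranges nearly touched at 15.4. The replicates of a day lay far apart, with means of 45.8 ± 42.9 on day 1, 0.888 ± 1.09 on day 2 and 8.48 ± 9.74 on day 3, against 0.555 ± 0.785 in co-culture (SD, n = 2 each). The log2 difference from co-culture was 4.62 on day 1, 0.25 on day 2 and 2.17 on day 3, each with an SE of 1.08.

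In 1 of the 2 day 1 libraries nearly all of the CRIP2 level came from 1 transcript. The accession NM_001270841 stood at 75.5 in day 1 replicate 1, which is 99.15% of the gene's level there, while NM_001312 and NM_001270837 stood at 0.376 and 0.273. In day 1 replicate 2 the same accession was at 5.63, or 36.51% of the level, beside 6.29 and 3.50 for the other two. Its share was 44.95% and 59.07% in the day 3 libraries, 45.45% in the homokaryon, 11.6% in co-culture replicate 1 and 14.62% in unfused fibroblasts, and on day 2 it was 0 in both libraries. In GENCODE, all 817 bases of the matching transcript lie within the 1857 bases of the transcript that matches NM_001312, so no base of it is its own. Without day 1 replicate 1, the day 1 difference from co-culture was 3.50 ± 1.17 (SE). Without NM_001270841, a choice made after seeing the data, the day 1 difference was 1.58 ± 1.10 and the day 3 difference 1.49 ± 1.10 (SE).

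**Figure D2:**
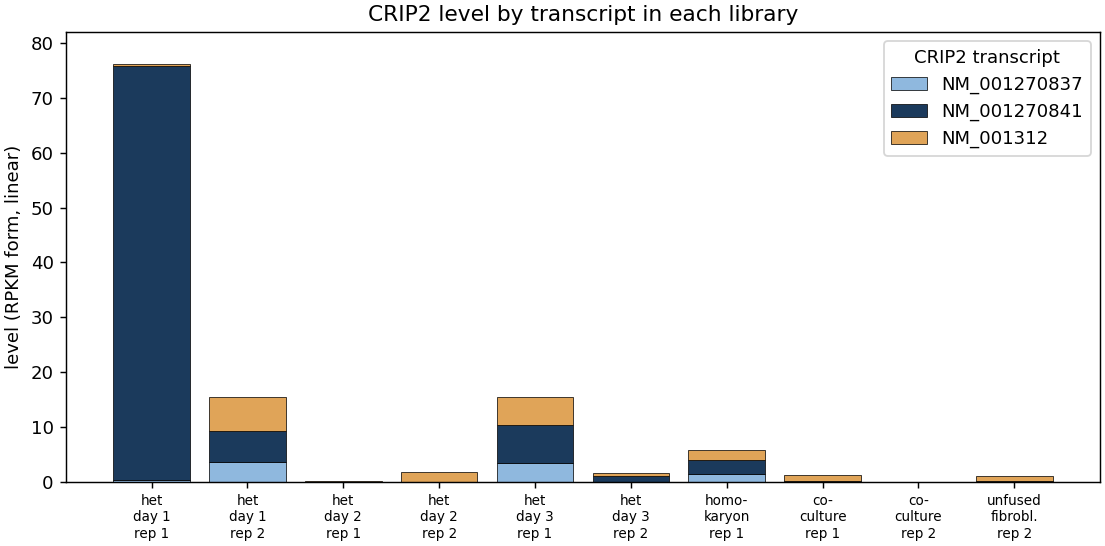
CRIP2 level (RPKM form, linear axis) in each of the 10 libraries as stacked bars, 1 colour per RefSeq transcript. The bar of heterokaryon day 1 replicate 1 reaches 76.1, of which NM_001270841 makes up 75.5, and the transcripts share the other bars more evenly or the bars are near 0.

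CSRP1 was the most abundant of the 4 outside the heterokaryons and was lower in all heterokaryons than in co-culture. Its level was 113 and 81.4 on day 1, 140 and 111 on day 2 and 189 and 180 on day 3. It was 97.6 in the homokaryon, 200 and 245 in co-culture and 280 in the unfused fibroblast library. No heterokaryon library reached the lower co-culture. From lowest to highest, the groups ran day 1, day 2, day 3, co-culture and unfused fibroblast, with day 1 and day 2 overlapping and the homokaryon inside the day 1 range. These are sums of 3 transcripts, and within a library the highest CSRP1 transcript stood at 1.03 to 1.08 times the lowest, so the sum may count the same reads more than once. A single transcript, NM_001193570, stood at 26.8 to 65.5 in heterokaryons, 33.3 in the homokaryon, 69.0 and 84.5 in co-culture and 95.4 in the unfused fibroblast library.

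CSRP1 averaged 97.4 ± 22.7 on day 1, 126 ± 20.4 on day 2 and 185 ± 6.42 on day 3, against 223 ± 32.1 in co-culture (SD, n = 2 each). The log2 difference from co-culture was -1.20 on day 1, -0.82 on day 2 and -0.26 on day 3, each with an SE of 0.25. On day 3 the difference was thus about as large as its error, although the libraries did not overlap. Day 3 lay above day 1 by 0.94 on the same scale (SE 0.25), with both day 3 libraries above both day 1 libraries.

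CSRP2 was moderate in most libraries and lowest on day 3. Its level was 41.7 and 12.3 on day 1, 18.6 and 14.9 on day 2 and 6.76 and 1.40 on day 3. It was 18.4 in the homokaryon, 15.4 and 9.05 in co-culture and 21.0 in the unfused fibroblast library. Day 1 and day 2 overlapped with co-culture, and both day 3 libraries lay below every other library. From lowest to highest by mean, the groups ran day 3, co-culture, day 2, homokaryon, unfused fibroblast and day 1. Day 2 overlapped with co-culture, the homokaryon lay inside the day 2 range and the unfused fibroblast library inside the day 1 range, so only day 3 stood clear. CSRP2 averaged 27.0 ± 20.7 on day 1, 16.8 ± 2.65 on day 2 and 4.08 ± 3.79 on day 3, against 12.2 ± 4.46 in co-culture (SD, n = 2 each). The log2 difference from co-culture was 0.89, 0.46 and -1.57 on days 1, 2 and 3, each with an SE of 0.73. Day 3 was lower than day 2 by a log2 difference of -2.03 and lower than day 1 by -2.47 (SE 0.73).

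All 4 genes passed the filter of a level of 1 or more in at least 2 libraries, CRIP1 only through the heterokaryons. On day 1, 3 of the 4 did not overlap with co-culture, CRIP1 and CRIP2 being higher and CSRP1 lower. Over all genes compared on day 1, 28.0% were higher and 26.2% lower without overlap. On day 2, CRIP1 was higher and CSRP1 lower without overlap, where 39.5% of all genes were higher and 21.4% lower. On day 3 none of the 4 overlapped, CRIP1 and CRIP2 being higher and CSRP1 and CSRP2 lower, where 26.3% of all genes were higher and 20.6% lower. Nothing is read from these counts, since the genes were chosen on the same comparisons.

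Set against unfused fibroblast replicate 2, a single library and so without a test, the homokaryon had CSRP1 at 97.6 against 280 (log2 difference -1.51), CRIP2 at 5.70 against 1.06 (1.70) and CSRP2 at 18.4 against 21.0 (-0.18). CRIP1 was not listed in the homokaryon, against 0.678 in the unfused fibroblast library. Of all genes compared between these libraries, 14.2% were at least 2-fold higher and 14.4% at least 2-fold lower in the homokaryon on the level plus 1 scale. The co-cultures had CSRP1 at 200 and 245, against 280 in unfused fibroblasts (log2 difference of the mean -0.33), and CSRP2 at 15.4 and 9.05, against 21.0 (-0.73). Over all genes, 10.7% were at least 2-fold higher and 7.23% at least 2-fold lower in co-culture than in that library. In heterokaryons, CSRP1 had a log2 difference from the same library of -1.51 on day 1, -1.15 on day 2 and -0.60 on day 3. Counted from the lowest difference, these were places 214 of 2669 genes, 188 of 2454 and 504 of 2669.

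**Figure D3:**
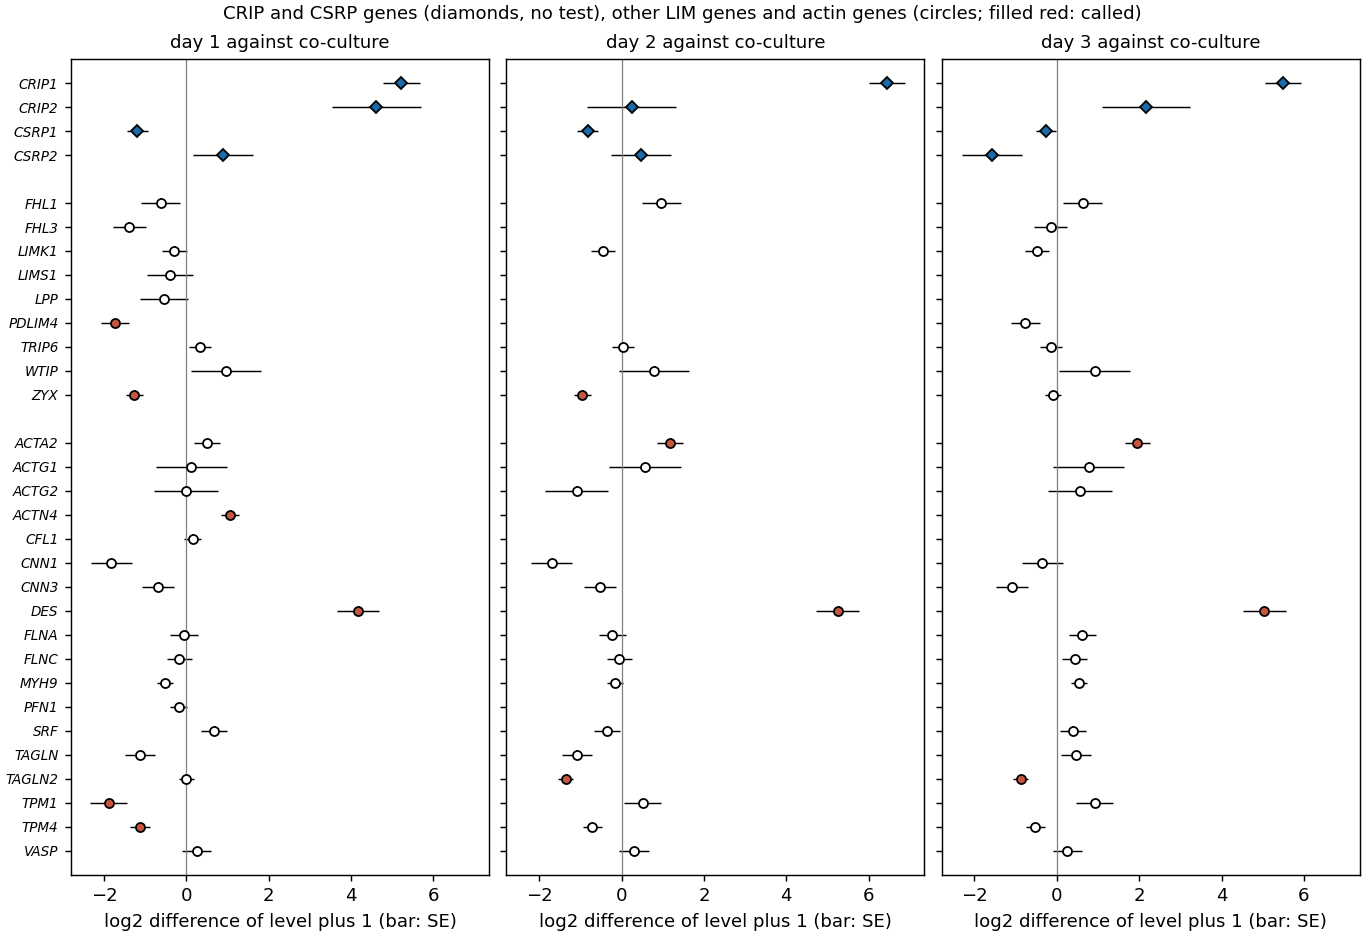
Difference from co-culture on the scale of log2 of the level plus 1, with its SE, at days 1, 2 and 3. Diamonds are the CRIP and CSRP genes, which were not tested, and circles are the other LIM genes and the actin genes reported here, filled where called. CRIP1 lies at 5.22 to 6.45 and DES at 4.17 to 5.25, while ZYX lies at -1.26, -0.95 and -0.09. DES, like CRIP1, passed the filter on low values only through the heterokaryons, so its fill is not read as a test.

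Other LIM domain genes were measured in part. No member of that list was called higher than in co-culture, but so few were tested that nothing is read from this beside the share over all genes. Calls were made with limma where the p adjusted by Benjamini-Hochberg was under 0.05, which took in 10.8% of 3556 genes on day 1 (6.24% higher and 4.53% lower), 10.2% of 2421 on day 2 (6.53% higher and 3.72% lower) and 3.55% of 2990 on day 3 (2.34% higher and 1.20% lower). Of 49 other LIM genes, 9 were tested on day 1 and 2 of them fell, 5 were tested on day 2 and 1 fell, and 7 were tested on day 3 with 0 called by limma and 0 at an unadjusted p under 0.05. At such an unadjusted p, 0 were higher on any day, 3 were lower on day 1 and 1 on day 2. Their median log2 difference was -0.54 on day 1, 0.04 on day 2 and -0.15 on day 3, against 0, 0.30 and 0.07 over all genes tested. The day 2 shift of all genes depended on scaling, being 0.13 with libraries scaled to their upper quartile and 0.03 with quantiles made equal, and the 158 genes called higher and 90 called lower became 133 and 129 under the first and 111 and 108 under the second.

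ZYX, which encodes zyxin, the focal adhesion partner of CSRP proteins, was at 166 and 144 on day 1, 184 and 201 on day 2 and 331 and 371 on day 3. It was at 164 in the homokaryon, 349 and 397 in co-culture and 647 in the unfused fibroblast library. ZYX fell against co-culture by a log2 difference of -1.26 ± 0.20 (SE) on day 1 (limma adjusted p = 0.0104) and of -0.95 ± 0.20 on day 2 (limma adjusted p = 0.0253), and its day 3 libraries overlapped with co-culture. The day 1 call was lost without co-culture replicate 1 (adjusted p = 0.0815) or co-culture replicate 2 (0.111) in limma, and the day 2 call without any 1 of its 4 libraries (0.117 to 0.201). PDLIM4, a LIM and PDZ protein of actin stress fibres, was at 17.2 and 15.8 on day 1, against 59.5 and 54.5 in co-culture. It was at 8.56 in the homokaryon and 22.3 in the unfused fibroblast library, with both day 1 libraries between these values. Against co-culture alone, PDLIM4 was lower by a log2 difference of -1.73 ± 0.35 (limma adjusted p = 0.026). That call was lost without any 1 of the 4 libraries.

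Among genes of actin binding and of the serum response factor programme, to which CSRP1 is linked in smooth muscle, 19 of 37 were tested on day 1, where 3 rose and 2 fell. On day 2, 16 were tested, 3 rose and 1 fell, and on day 3, 16 were tested, 3 rose and 1 fell. Over all genes tested, 6.24% were called higher and 4.53% lower on day 1. The shares were 6.53% and 3.72% on day 2 and 2.34% and 1.20% on day 3. With so few list genes tested, nothing is read from these counts. The median log2 difference of the list was -0.01 on day 1, -0.20 on day 2 and 0.50 on day 3, against 0, 0.30 and 0.07 over all genes tested. DES, the muscle intermediate filament desmin, was at 17.5 and 33.6 on day 1, 55.1 and 49.9 on day 2 and 36.7 and 55.8 on day 3, against 0.972 and 0 in co-culture. It was higher by log2 differences of 4.17, 5.25 and 5.04 (SE 0.52), with limma adjusted p of 0.00459, 0.0019 and 0.00553. Like CRIP1, DES passed the filter on low values only through the heterokaryons, where it is high, so it had to differ to be tested. Its calls and adjusted p are therefore not read as a test, and its place in the counts above is no support for the list.

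ACTA2, smooth muscle actin, was at 154 and 164 on day 2 and 373 and 202 on day 3, against 66.0 and 73.9 in co-culture. It was at 151 in the homokaryon and 170 in the unfused fibroblast library, and both day 2 libraries lay between these values. Against co-culture alone, ACTA2 rose by 1.18 on day 2 (limma adjusted p = 0.0484) and 1.96 on day 3 (0.0182, SE 0.31).

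TAGLN2, an actin binding calponin relative, was at 237 and 245 on day 2 and 359 and 313 on day 3, against 629 and 606 in co-culture. It was also below co-culture in the homokaryon, at 368, and was at 778 in the unfused fibroblast library. Against co-culture alone, TAGLN2 fell by a log2 difference of -1.35 on day 2 (limma adjusted p = 0.00514) and -0.88 on day 3 (0.0436, SE 0.18). The tropomyosins TPM1 (58.6 and 44.8, against 206 and 180 in co-culture) and TPM4 (189 and 186, against 408 and 413 in co-culture) fell on day 1 by -1.89 ± 0.45 and -1.13 ± 0.23 (limma adjusted p = 0.0332 and 0.0232). The fall of TPM1 was limited to day 1. On day 2 TPM1 was at 301 and 253, above both co-cultures though not called (0.52 ± 0.45). On day 3 it was at 657 and 204 and overlapped with co-culture. TPM1 was at 110 in the homokaryon and 382 in the unfused fibroblast library, and TPM4 at 347 and 502. ACTN4, a partner of CSRP proteins named here after its values were seen, was at 304 and 295 on day 1, against 141 and 147 in co-culture, a rise of 1.05 ± 0.22 (limma adjusted p = 0.0354). ACTN4 was at 94.8 in the homokaryon and was not covered in the unfused fibroblast library. With each of the 4 libraries of a comparison left out in turn, no setting called TPM1, TPM4 or ACTN4 on day 1 or ACTA2 or TAGLN2 on day 2 (largest adjusted p from 0.0757 to 0.233). On day 3, ACTA2 was called in 2 of 4 settings and TAGLN2 in 1 of 4, both being lost without either co-culture library and TAGLN2 also without day 3 replicate 2. Smooth muscle markers, of which 4 of 8 were covered (ACTA2, TAGLN, CNN1 and DES, all of them also on this list), summed to 509 to 2435 in heterokaryons, 816 in the homokaryon, 1094 to 1122 in co-culture and 2570 in the unfused fibroblast library. Their part in these calls was not tested.

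None of the 28 zinc handling genes was tested on any day, since every library of a comparison had to cover all of a gene's coding transcripts. Of 14 neighbours of CRIP1 and CRIP2 on chromosome 14, 2 were covered in every heterokaryon and co-culture library. TEX22, a testis expressed gene that lies 3 places before CRIP2, was at 0 to 0.109 in heterokaryons and 0 in both co-cultures. TEDC1, which encodes a tubulin complex protein and is next to CRIP1, was at 3.23 and 0 on day 1, 0.494 and 0 on day 2 and 0.750 and 0.152 on day 3, against 1.02 and 0 in co-culture. MTA1, a subunit of a chromatin remodelling complex and next to CRIP2, was covered on day 1 (32.9 and 50.6) and day 3 (27.6 and 58.4), against 35.9 and 22.1 in co-culture. Neither TEDC1 nor MTA1 was called on a day it was tested (limma adjusted p from 0.537 to 1, and 0 at an unadjusted p under 0.05), and their errors were wide, with an SE of 0.73 and 0.47 on the log2 scale.

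The genes whose levels ran most like each member were found by Pearson r of log2 of the level plus 1 over the 10 libraries, among 1381 genes that all 10 cover, as a description without a test. The libraries share their groups, so a gene that is high in heterokaryons alone is like any other such gene. CRIP1 was closest to DES (r = 0.983), to the epithelial keratin KRT19 (0.982) and to the secreted glutathione peroxidase GPX3 (0.966). KRT19 was at 86.6 and 58.4 on day 1, 259 and 329 on day 2 and 221 and 144 on day 3, 3.18 in the homokaryon, 5.94 and 6.29 in co-culture and 6.95 in the unfused fibroblast library. GPX3 was at 67.1 to 174 in heterokaryons and at 3.45 to 11.2 in the other 4 libraries. KRT19 is highest on day 2, as CRIP1 is, and neither gene overlaps between heterokaryons and the other libraries.

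CSRP1 was closest to ZYX (0.957), the mitochondrial ribosomal gene MRPL12 (0.911) and the cytokine gene IL11 (0.899). CSRP2 was closest to TMBIM6, an endoplasmic reticulum membrane protein (0.902), the lysosomal enzyme gene GLA (0.901) and the chromatin protein gene HMGB1 (0.874). CRIP2 had weaker likenesses, to RPL37A (0.839), FES (0.835) and NDUFA6 (0.832), which are a ribosomal protein, a tyrosine kinase and a respiratory chain subunit. RPL37A and HMGB1 have many processed copies in the genome, so their levels are uncertain. Among the 4 genes themselves, r ran from -0.532 between CRIP2 and CSRP1 to 0.345 between the adjacent CRIP1 and CRIP2.

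**Figure D4:**
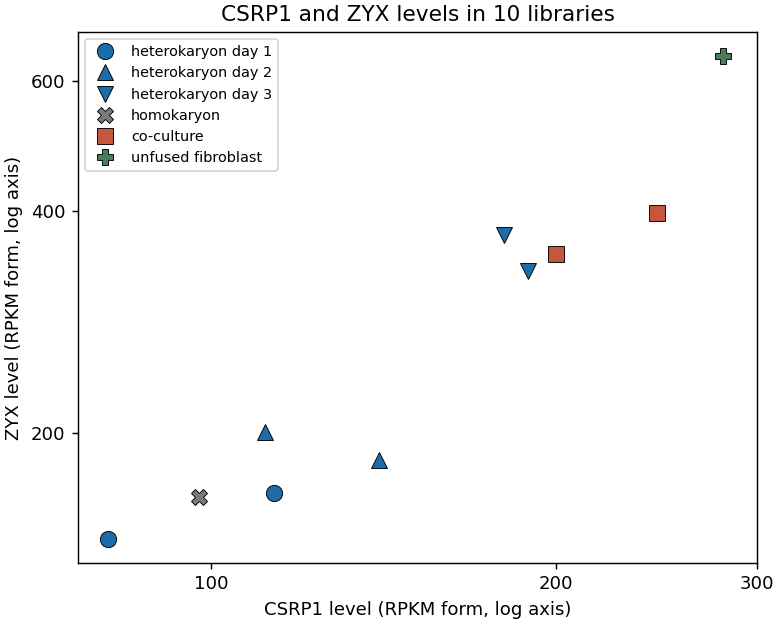
CSRP1 level against ZYX level in the 10 libraries (RPKM form, logarithmic axes), with 1 symbol per group. Day 1, day 2 and homokaryon libraries lie at the lower left (CSRP1 from 81.4 to 140, ZYX from 144 to 201), day 3 and co-culture in the middle and the unfused fibroblast library at the upper right.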

How the data were processed

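PolyA RNA was sequenced from 12 samples, and 11 of the 12 deposited tables were used. The authors' tables list 1 value per RefSeq transcript, taken here to be RPKM or a unit of that form, since the unit is not stated; the deposited values fell only loosely near multiples of 1 step per library. Reads were mapped with hg19 and mm10, per the submitters' processing notes, while for the aligner the sources used here give none. Mouse transcripts were not analysed. Each table holds 10000 distinct values, and a transcript missing before the last accession with a new value was set to 0, while one past it was left out. The human RefSeq table gave each transcript its gene (88 accessions by an older one), a gene was used in a library that covers all its coding accessions, and 314 genes beside an accession with no name were set aside. CSRP1 is the sum of the 3 transcripts covered in all 10 libraries. These rules were chosen after seeing the data.

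Log2 of the deposited value plus 1 was fitted with limma 3.58.1 in R 4.3.3 (lmFit, eBayes with trend) over the 10 libraries of replicated groups that list human transcripts, so unfused fibroblast replicate 3 was dropped, and uncovered values stayed missing. Tests were made on genes with a value of 1 or more in 2 or more samples, with Benjamini-Hochberg adjustment over all of them. The script was tested on simulated data. Alternatives were a pseudocount of 0.5, upper quartile scaling, quantile normalization, a fit of the 2 groups alone, no filter, a replicate block, and each library left out. The text names the 4 genes, up to 4 called genes of smallest adjusted p per list and day, the 3 genes of highest r per member (mean level of 5 or more), and covered neighbours; 1 called gene of the actin list, included in its counts, is not reported here. Members and lists (other LIM genes, actin and serum response factor genes, zinc handling, chromosome 14 neighbours, cell type markers) were chosen with earlier results of these data known. Sequences come from GENCODE release 29, whose build differs from that of the files, so no coordinates are given, and alignments used Biopython 1.88.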

Additional observations from a re-analysis of the deposited data

Results flagged for a closer look

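The table of unfused fibroblast replicate 3 was not used because all of its 8070 accessions lie outside the human RefSeq table. The table of unfused fibroblast replicate 1 holds 12155 accessions outside the human table, beside the human part that ends before the CRIP and CSRP genes. Both signals sit in a group labelled as human alone, and neither was analysed further here.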

How the results depend on the processing

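Of the 12 log2 differences of CRIP1, CRIP2, CSRP1 and CSRP2 from co-culture, the sign held under all alternatives run for 11, and that of CRIP2 on day 2 held in 7 of 11 (-0.38 to 0.87). A pseudocount of 0.5 moved CRIP1 to 5.92, 7.15 and 6.20 on days 1, 2 and 3, since co-culture is near 0. CRIP2 on day 1 was 1.58 without NM_001270841. With each library left out in turn, CRIP1 ranged from 4.73 to 5.72 on day 1, from 5.96 to 6.94 on day 2 and from 5.004 to 5.99 on day 3, CRIP2 from 3.50 to 5.73 on day 1 and from 0.84 to 3.49 on day 3, and CSRP2 from 0.0535 to 1.73 on day 1 and from -2.42 to -0.72 on day 3. The genes called by limma then numbered 42 to 344, 31 to 57 and 5 to 158, and the called list genes 1 to 4, 1 to 2 and 1 to 5; fewer samples went into these fits, and the lone sample of a group is assumed to vary like the other groups. A fit of the 2 groups alone called 223, 520 and 13 genes in all, and 9 list genes on day 2 and 1 on day 3, and no filter called 230 on day 1. Upper quartile scaling left ACTA2 uncalled on day 2 (adjusted p = 0.091), quantile normalization did so too (0.06) and also for ACTN4 on day 1 (0.0711) and TAGLN2 on day 3 (0.0572), all in limma. ACTA2 on day 2 was also lost with a pseudocount of 0.5 (limma adjusted p = 0.0501) or no filter (0.0871), TPM1 on day 1 with no filter (0.0892), and ACTA2 on day 3 (0.07) and TAGLN2 on day 3 (0.125) with the 2 groups alone. Same-numbered replicates do not share a source in the labels, and the correlation of their deviations with those of co-culture was 0.03, 0.09 and -0.01 on days 1, 2 and 3, so they were not taken as paired. The replicate block called 282, 187 and 64 genes, against 383, 248 and 106 without it, and left ACTN4 on day 1, ACTA2 on day 2 and TAGLN2 on day 3 uncalled (limma adjusted p = 0.0778, 0.0679 and 0.0773). Depth is unknown, so the levels near 0 of CRIP1 and CRIP2 in co-culture carry no counting error. All other causes of these shifts were not tested.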
